A study of Mus musculus with 35 samples.

Results

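AP-1 is not a single protein but a family of basic leucine zipper (bZIP) transcription factors that bind DNA as dimers. Its 10 genes described here are Jun, Junb and Jund of the Jun subfamily, Fos, Fosb, Fosl1 and Fosl2 of the Fos subfamily, the ATF genes Atf2 and Atf3, and the small Maf gene Maff. They were picked out by gene symbol and are 10 of the 20261 genes in the deposited table of normalized reads. All 10 passed the filter on low values (1 group or more with a mean of 10 normalized reads) and were tested among 13896 genes.

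Jun proteins form dimers with each other or with Fos or ATF proteins, whereas Fos proteins need a partner such as Jun. c-Jun N-terminal kinase (JNK) phosphorylates Jun and ATF2 in their activation domains, and Jun-ATF2 dimers act on the promoter of Jun itself, so that the kinase can bear on the amount of Jun RNA as well as on the activity of the protein. Fos, Fosb, Junb and Atf3 are early-response genes whose RNA is made and degraded quickly after a stimulus. In mammary epithelial cells AP-1 acts with SMAD proteins at many genes that respond to transforming growth factor β (TGF-β).

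The cells were NMuMG, an epithelial line from normal mouse mammary gland, labelled wild type and E9. RNA sequencing covered 35 samples, of which 20 are used here: 10 from cells given the vehicle DMSO and 10 from cells given a JNK inhibitor that the labels call JNKi without naming the compound. Each arm had 2 libraries at 24, 48, 72 and 96 h and at 7 days. TGF-β at 2 ng/ml is part of the protocol attached to every sample, and no arm without it stands beside these times, so TGF-β and time in culture cannot be told apart. The labels do not say that the 2 libraries of a group came from separate cultures. The p-values therefore speak of the spread between libraries, which may be technical. The values are RNA levels. Phosphorylation of Jun was not measured here.

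Library depth ran from 9.5 to 48.6 M reads, with the lowest in JNKi 7 d replicate 1. Each 7-day library nevertheless held more genes above 0 than any earlier library. The counts at 7 days were 17032 and 18151 in DMSO and 16973 and 18956 with JNKi (replicate 1 then replicate 2). The highest earlier count was 16963, in JNKi 96 h replicate 1. The part of this in the 7-day results was not tested. Of 10 epithelial markers, the keratin Krt8 ranged from 44774 to 209386 normalized reads and the E-cadherin gene Cdh1 from 3746 to 13911, whereas Epcam was listed at 0 in 15 of 20 libraries (highest 12.6) and the claudin genes Cldn3 and Cldn7 stayed at or under 2.4 and 4.3. The leukocyte markers Cd3e (0 in 15 libraries, highest 2.0) and Ptprc (highest 17.5) were near 0. Of the same list, Csf1r ranged from 439 to 880 and Cd14 from 484 to 1876.

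Jun and Atf3 were the only members to pass the limma test between the arms (adjusted p under 0.05), and they did so only at 7 days. Both calls were lost when some single libraries were left out, as given below. The 250 bases before the RefSeq starts of these 2 genes are shown because of those calls. They come from RefSeq on GRCm38.p6, which is not the build the submitters' processing notes name (mm9). The Jun stretch is chr4:95052223-95052472 and the Atf3 stretch chr1:191183334-191183583, both on the minus strand, upstream of a RefSeq start and written 5′ to 3′. GENCODE places the Atf3 gene at chr1:191170296-191218039, so the Atf3 stretch lies within that gene. Bases before any Atf3 start further upstream were not searched. Capitals mark matches to the octamers TTACCTCA and TGACATCA in Jun and TTACGTCA in Atf3, which resemble the AP-1 and cyclic AMP response elements.
Jun: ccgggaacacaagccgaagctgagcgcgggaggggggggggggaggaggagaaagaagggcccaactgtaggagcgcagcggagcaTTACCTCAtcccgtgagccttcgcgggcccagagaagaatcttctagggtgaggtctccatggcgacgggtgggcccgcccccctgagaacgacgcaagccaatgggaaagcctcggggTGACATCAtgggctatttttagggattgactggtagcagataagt
Atf3: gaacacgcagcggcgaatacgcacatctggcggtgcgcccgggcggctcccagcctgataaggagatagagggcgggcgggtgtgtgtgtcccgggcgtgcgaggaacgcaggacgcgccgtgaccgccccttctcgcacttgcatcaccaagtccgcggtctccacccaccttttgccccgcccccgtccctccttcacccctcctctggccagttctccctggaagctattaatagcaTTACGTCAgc
The first base of TTACCTCA stood 164 bases before the Jun start and that of TGACATCA 45 bases before it, and TTACGTCA began 10 bases before the Atf3 start. The motifs were picked from general knowledge with the sequences in view. Among 32851 promoters of the same length, searched on both strands, TTACCTCA was found in 0.728%, TGACATCA in 2.93% and TTACGTCA in 0.447%. The canonical AP-1 site TGACTCA was in 4.46% of all promoters and in none of the 11 stretches that 9 of the 10 members have in the table. TGACGTCA, the palindromic cyclic AMP response element, was in 1.55% of all and, among members, in Maff, which also held TGACATCA. No 2 matches overlapped in the members. A match describes letters, not binding.

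Per kilobase of exon, so that genes can be compared, Junb and Jund stood far above the rest, with medians over the 20 libraries of 8348 and 5687 normalized reads per kb. Maff (1241), Fosl2 (829), Jun (704), Atf3 (621) and Atf2 (589) followed, then Fos (319), Fosl1 (141) and Fosb (84.0). The ranges of neighbours in that order overlapped over the libraries, except that the lowest Jund library (4175) lay above the highest of Maff (1919). Junb ranged from 4808 to 12364 per kb and Jund from 4175 to 7659, while Fosl1 ranged from 92.4 to 183 and Fosb from 30.9 to 167. The members differed more in how far they moved. The highest library exceeded the lowest 25-fold for Fos, 9.22-fold for Atf3 and 5.41-fold for Fosb, between 1.83-fold and 2.57-fold for Jund, Fosl1, Jun, Maff, Fosl2 and Junb, and 1.51-fold for Atf2.

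**Figure D1:**
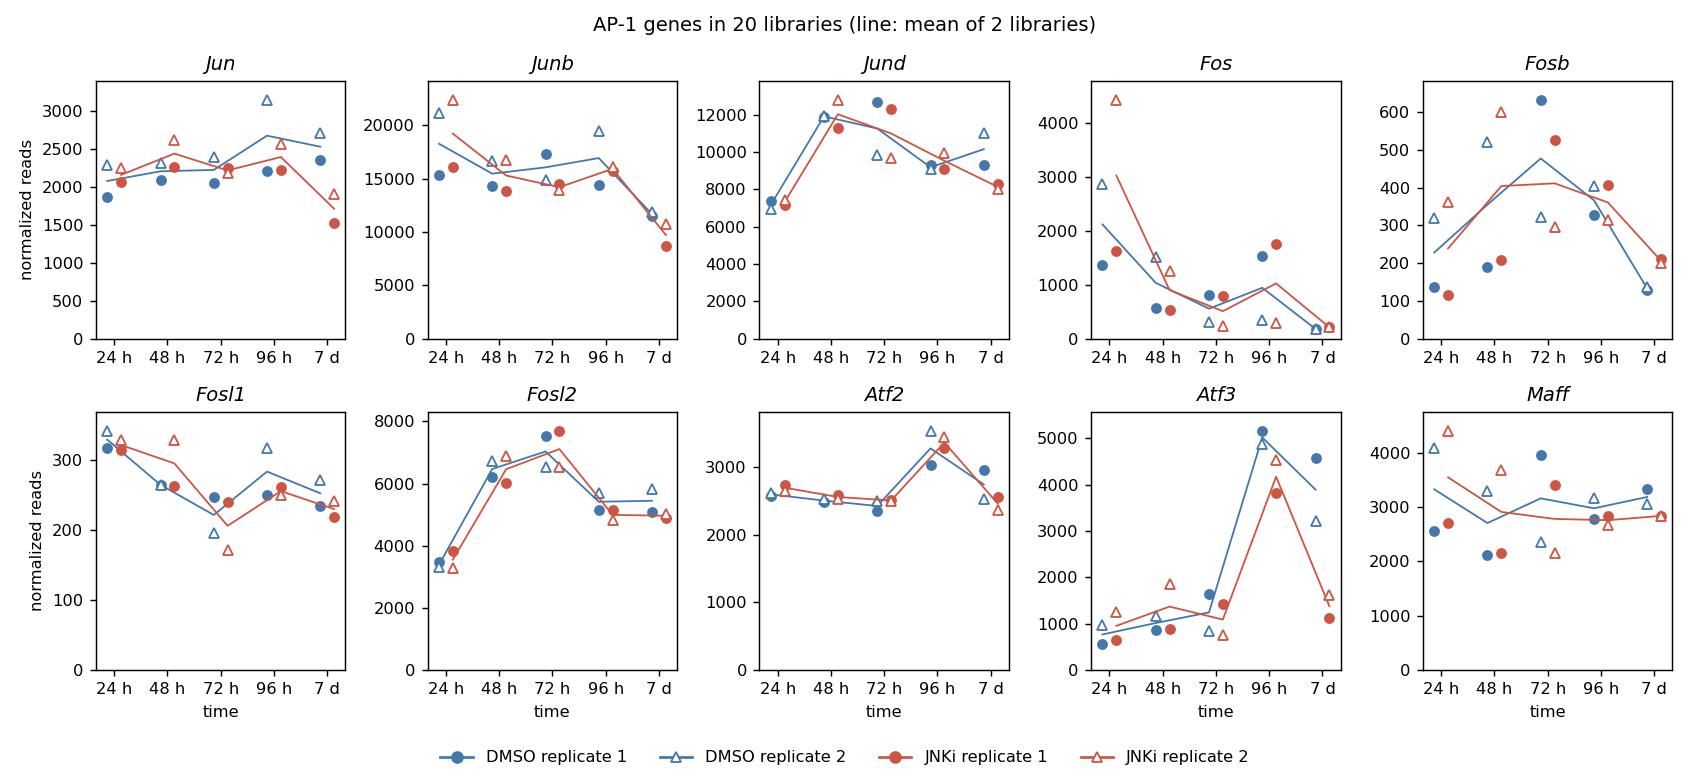
Normalized reads (linear axes from 0) of the 10 AP-1 genes by time, DMSO in blue and JNKi in red, 1 symbol a library and lines through the means of 2 libraries. Atf3 was highest at 96 h in both arms, stayed high at 7 days in DMSO (3221 and 4570) and stood at 1126 and 1625 in JNKi.

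The first question was whether the inhibitor altered AP-1 RNA. At 24, 48, 72 and 96 h 0 of 10 members passed the limma test at any of these times (adjusted p under 0.05), against 0%, 0%, 0.072% and 0.0072% of all 13896 genes. No member reached an unadjusted p under 0.05 at these times either, and edgeR and DESeq2 called 0 members at each. At 7 days 2 of 10 members were lower with JNKi, Atf3 and Jun, where 10.2% of all genes were called and 5.33% were called lower. Libraries of the 2 arms did not overlap for 1 of 10 members at each of the 4 earlier times, Atf2 (higher with JNKi) at 24 and 48 h, Junb (lower) at 72 h and Atf3 (lower) at 96 h, against 27.1%, 29.2%, 36.4% and 39.4% of all genes. The 95% intervals at those times were narrow for Jun (-0.26 to 0.39 at 24 h and -0.47 to 0.18 at 96 h) and Atf2 (-0.13 to 0.24 at 24 h). For Fos this model left room for large differences in either direction (-1.33 to 2.21 at 24 h and -1.80 to 1.73 at 96 h). The Fos intervals take in gaps between the 2 libraries of a group that ran the same way in both arms, as given below. The median log2 difference of the members at 7 days was -0.16 and that of all genes 0.02.

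Atf3, a stress-induced gene that often represses its targets, held 559 and 969 normalized reads in the DMSO libraries (24 h, replicate 1 then replicate 2), 851 and 1171 (48 h), 1645 and 836 (72 h), 5157 and 4889 (96 h), and 4570 and 3221 (7 days). With JNKi it held 644 and 1254 (24 h), 889 and 1844 (48 h), 1421 and 750 (72 h), 3813 and 4537 (96 h), and 1126 and 1625 (7 days). The arms overlapped at 24, 48 and 72 h, and at 96 h and 7 days both JNKi libraries lay below both DMSO libraries. The log2 difference at 7 days was -1.50 (SE 0.40, limma adjusted p = 0.0262), a level 2.84-fold lower with JNKi. At the earlier times it lay between -0.27 and 0.36. The call was lost without DMSO 7 d replicate 1 (-1.25, limma adjusted p = 0.208), without JNKi 7 d replicate 1 (-1.24, 0.208), without JNKi 7 d replicate 2 (-1.77, 0.0603) and in limma without the trend (0.0724), and it was kept without DMSO 7 d replicate 2 (-1.76, 0.0371).

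Jun, the founding member and the substrate for which JNK is named, held 1865 and 2282 normalized reads in DMSO (24 h), 2092 and 2311 (48 h), 2052 and 2387 (72 h), 2203 and 3138 (96 h), and 2350 and 2700 (7 days). With JNKi it held 2061 and 2248 (24 h), 2255 and 2613 (48 h), 2244 and 2183 (72 h), 2213 and 2565 (96 h), and 1520 and 1899 (7 days). The JNKi libraries of 7 days included the lowest Jun level of all 20 and did not overlap the DMSO libraries of that day, whereas the arms overlapped at each earlier time. The log2 difference at 7 days was -0.57 (SE 0.15, limma adjusted p = 0.0272), a level 1.48-fold lower. The call was lost without DMSO 7 d replicate 1 (-0.67, limma adjusted p = 0.0771), DMSO 7 d replicate 2 (-0.47, 0.129) or JNKi 7 d replicate 1 (-0.41, 0.252) and in limma without the trend (0.0663), and it was kept without JNKi 7 d replicate 2 (-0.73, 0.0369). For all genes the count of 1414 at 7 days became 376 without DMSO replicate 1, 368 without JNKi replicate 1 and 563 without JNKi replicate 2.

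Whether the 7-day difference itself stood apart from the mean of the 4 earlier times was tested directly. No member passed (3.34% of all genes did, and 3 members had an unadjusted p under 0.05). The difference was -1.55 for Atf3 (SE 0.45, limma adjusted p = 0.0665) and -0.58 for Jun (SE 0.17, limma adjusted p = 0.0699). edgeR called 0 members here and DESeq2 called 1, Jun (adjusted p = 0.0326). Jun also passed without DMSO 96 h replicate 2 (-0.65, limma adjusted p = 0.0260). Atf3 passed without DMSO 72 h replicate 1 (-1.67, limma adjusted p = 0.0409), JNKi 24 h replicate 1 (-1.67, 0.0444), JNKi 48 h replicate 1 (-1.68, 0.0415) or JNKi 72 h replicate 2 (-1.67, 0.0411). Nor did any member pass for the mean over the 5 times (4.77% of all genes, 0 members at an unadjusted p under 0.05) or the F-test over times (0.324% of all genes, 2 members at an unadjusted p under 0.05), and edgeR and DESeq2 called 0 members in both.

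The other 8 members did not pass at 7 days. Of all 10, 6 had both JNKi libraries below both DMSO libraries (Jun, Atf3, Junb, Jund, Fosl2 and Maff) and 2 had both above. Of all genes, 26.2% lay below and 32% above without overlap (58.2% in all). Jund, a broadly expressed Jun protein, held 9294 and 10998 normalized reads in DMSO and 8257 and 8006 with JNKi, a log2 difference of -0.31 (95% interval -0.57 to -0.06, limma adjusted p = 0.112). Junb, which can oppose Jun, held 11472 and 11874 in DMSO and 8698 and 10742 with JNKi, a log2 difference of -0.27 (95% interval -0.64 to 0.10, limma adjusted p = 0.343). Both thus lay on the side of Jun without passing. The 95% intervals were narrow for Fosl2, which encodes FRA-2 (-0.36 to 0.10), and for Atf2 (-0.34 to 0.03), a constitutively made JNK substrate, and wide for Maff (-0.81 to 0.48). Fosl1, which encodes FRA-1, had an interval of -0.50 to 0.24.

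Fos and Fosb were the members higher with JNKi in both libraries at 7 days. Fos held 177 and 183 normalized reads in DMSO and 211 and 209 with JNKi, and Fosb 128 and 137 in DMSO and 211 and 202 with JNKi. Libraries of the same group lay close together here. The model shares 1 spread over all times, both genes varied widely within groups earlier, and neither passed: Fos 0.22 (95% interval -1.55 to 1.99, limma adjusted p = 0.894) and Fosb 0.63 (95% interval -0.57 to 1.84, limma adjusted p = 0.509). Fosb passed in a fit on the 4 libraries of that day alone (limma adjusted p = 0.0270).

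**Figure D2:**
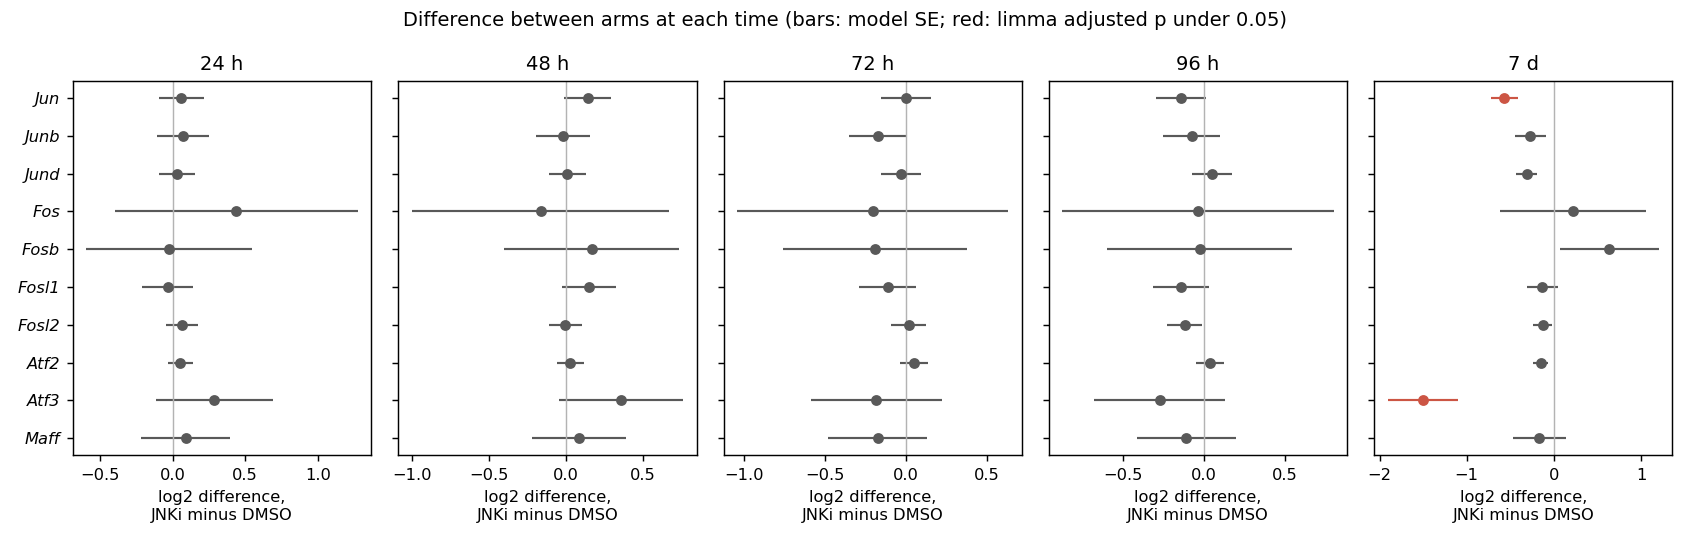
Log2 difference, JNKi minus DMSO, for each AP-1 gene at each time (x axes scaled per panel), with bars of 1 model SE and red for a limma adjusted p under 0.05. Atf3 (-1.50) and Jun (-0.57) at 7 days are the red points, and Fos has the widest bars.

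Beside these values, the summed level of the 10 epithelial markers at 7 days ran from 131734 to 167063 normalized reads in DMSO and from 99237 to 106268 with JNKi. Most of each sum came from the keratin genes Krt8 and Krt18 (medians over all libraries 123898 and 93271). No other epithelial marker had a median above 8924.2. Of the 8 epithelial markers tested, 1 was lower, where 741 of all 13896 genes were called lower and 673 higher. The 8 leukocyte markers, by level mostly Csf1r and Cd14, summed to between 1642 and 1663 in DMSO and between 1990 and 2166 with JNKi. Of the 6 leukocyte markers tested, 1 was higher. The 6 endothelial markers summed to between 685 and 739 in DMSO and between 679 and 699 with JNKi (1 of 4 tested was lower), and the 4 adipocyte markers to between 8.2 and 10.1 and between 21.7 and 33.3. The part of these shifts in the 7-day results was not tested, and in RNA from whole cultures fewer cells of a kind and less RNA per cell cannot be told apart.

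The second question was how AP-1 RNA moved with time in each arm. Between 24 and 96 h, 4 of 10 members rose in DMSO, where 63.3% of all genes were called and 32.7% rose, and 4 rose with JNKi, where 59.8% were called and 30.8% rose. They were Atf3, Fosl2, Jund and Atf2 in both arms. The member count is near the share of all genes called in that direction. Over the same span the sums of the 10 epithelial markers, by level mostly Krt8 and Krt18, fell in both arms. In DMSO they went from 329455 to 347372 normalized reads down to 146494 to 158514. With JNKi they went from 334989 to 378211 down to 127925 to 135087. Of the 8 tested, 4 fell in each arm, where 4245 of all 13896 genes fell in DMSO and 4032 with JNKi. In DMSO 0 of the 8 rose and with JNKi 2 rose. The part of this shift in the rises was not tested. Median log2 changes were 0.34 for members and 0.07 for all genes in DMSO, and 0.23 and 0.07 with JNKi.

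Atf3 rose most, by a log2 change of 2.77 in DMSO (SE 0.40, limma adjusted p = 1.65e-05) and 2.21 with JNKi (SE 0.40, limma adjusted p = 1.84e-04), and in the values given above most of that rise fell between 72 and 96 h. Fosl2 had an earlier course. It held 3469 and 3297 normalized reads in DMSO (24 h), 6215 and 6719 (48 h), 7537 and 6529 (72 h), 5139 and 5685 (96 h), and 5076 and 5812 (7 days). With JNKi it held 3820 and 3275 (24 h), 6019 and 6900 (48 h), 7683 and 6537 (72 h), 5148 and 4831 (96 h), and 4905 and 5019 (7 days). All libraries of 24 h lay below all later ones in both arms. At 96 h the log2 change against 24 h was 0.68 in DMSO (SE 0.11, limma adjusted p = 4.02e-05) and 0.50 with JNKi (SE 0.11, limma adjusted p = 8.34e-04).

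Jund followed a course like that of Fosl2: 7363 and 6964 normalized reads in DMSO (24 h), 11863 and 11948 (48 h), 12683 and 9826 (72 h) and 9276 and 9084 (96 h). With JNKi Jund held 7175 and 7452 (24 h), 11261 and 12775 (48 h), 12300 and 9677 (72 h) and 9094 and 9957 (96 h). All libraries of 48 h lay above those of 96 h and all of 96 h above those of 24 h, while 1 JNKi library of 72 h (9677) lay below 1 of 96 h (9957). Between 24 and 96 h the log2 change was 0.36 in DMSO (SE 0.12, limma adjusted p = 0.0173), lost without DMSO 24 h replicate 2 (0.32, 0.0924), DMSO 96 h replicate 1 (0.34, 0.0697) or DMSO 96 h replicate 2 (0.37, 0.0526). With JNKi it was 0.38 (SE 0.12, limma adjusted p = 0.0132), lost without JNKi 24 h replicate 1 (0.35, 0.0616) or JNKi 96 h replicate 2 (0.31, 0.101).

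The step from 24 to 48 h was added after the values of Fosl2 and Jund were seen. Between 24 and 48 h these 2 were the only members to pass in DMSO (28.4% of all genes called, 14.7% higher) and with JNKi (22.1%, 10.9% higher). Fosl2 rose by 0.93 in DMSO (SE 0.11, limma adjusted p = 1.13e-05) and 0.87 with JNKi (SE 0.11, limma adjusted p = 2.93e-05). Jund rose by 0.73 (SE 0.12, limma adjusted p = 3.34e-04) and 0.71 (SE 0.12, limma adjusted p = 5.28e-04). In a fit on the 4 JNKi libraries alone, where no gene of the 13896 passed, the adjusted p was 0.0586 for Fosl2 and 0.0548 for Jund.

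Atf2, which is regulated mainly through its protein, moved within a narrow range of 2342 to 3528 normalized reads and was highest at 96 h (3022 and 3528 in DMSO, 3279 and 3443 with JNKi). It rose between 24 and 96 h by 0.33 in DMSO (SE 0.09, limma adjusted p = 0.00314) and 0.32 with JNKi (SE 0.09, limma adjusted p = 0.00446). In DMSO the call was lost without DMSO 96 h replicate 2 (0.22, 0.0714). For Jun the change over this span was 0.35 in DMSO (SE 0.15, limma adjusted p = 0.0567) and 0.15 with JNKi (SE 0.15, limma adjusted p = 0.421). Jun passed in DMSO with DESeq2 (adjusted p = 0.0388), without DMSO 24 h replicate 2 (0.50, limma adjusted p = 0.0318) and without DMSO 96 h replicate 1 (0.60, limma adjusted p = 0.00425).

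**Figure D3:**
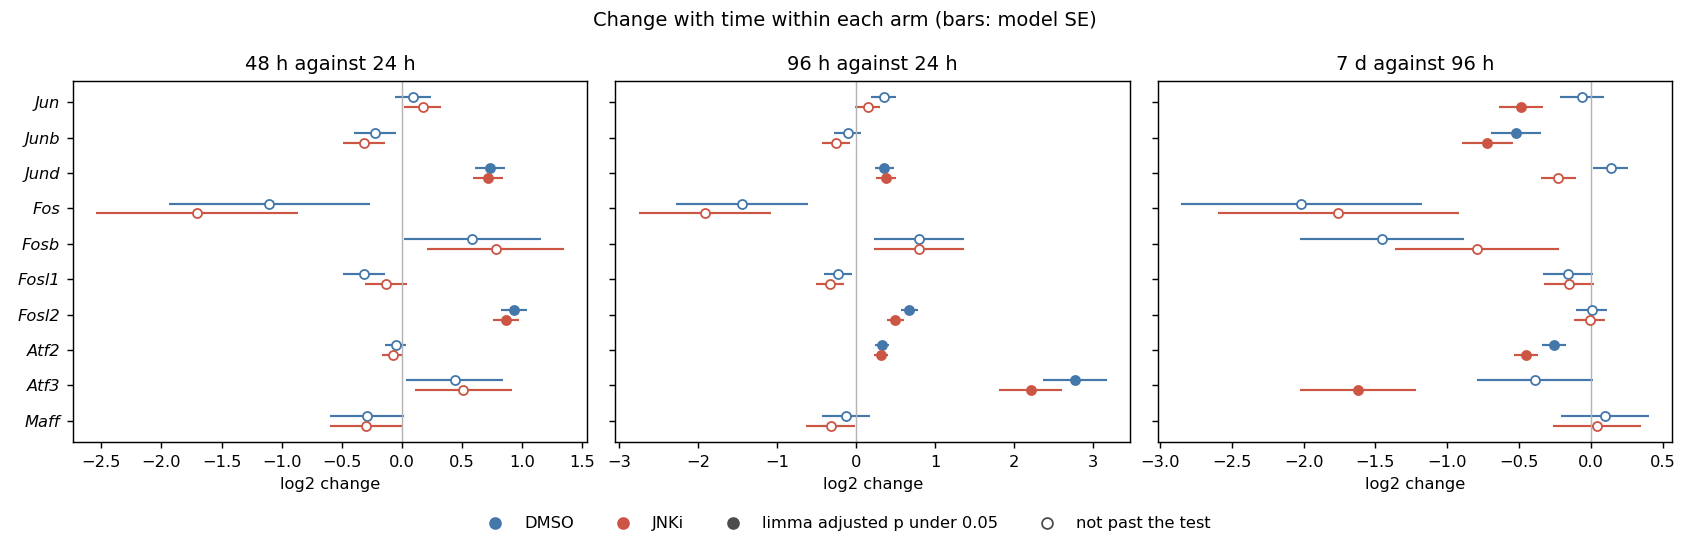
Log2 change of each AP-1 gene over 3 spans within DMSO (blue) and JNKi (red), with bars of 1 model SE, and filled points for a limma adjusted p under 0.05. Fosl2 and Jund are filled from 24 to 48 h and from 24 to 96 h in both arms, and between 96 h and 7 days Jun and Atf3 are filled with JNKi and open with DMSO.

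Between 96 h and 7 days no member rose. In DMSO 2 of 10 fell (36.5% of all genes called, 15.5% lower), Junb and Atf2, and with JNKi 4 fell (39.7% called, 16.6% lower), Junb, Atf2, Atf3 and Jun. The median log2 change of the members was -0.21 in DMSO and -0.47 with JNKi, against 0.06 and 0.07 for all genes. Beside these changes, the epithelial marker sums given above overlapped between 96 h and 7 days in DMSO, and with JNKi those of 7 days (99237 to 106268) lay below those of 96 h (127925 to 135087). The leukocyte marker sums were higher at 7 days than at 96 h in both arms, 1642 to 1663 against 965 to 1304 in DMSO and 1990 to 2166 against 1151 to 1380 with JNKi. At 24 h they had been 1954 to 2288 in DMSO and 2005 to 2333 with JNKi. Most of each sum came from Csf1r and Cd14 (medians over all libraries 570 and 944), while no other marker had a median above 6.45. Of the 6 leukocyte markers tested, 2 rose in DMSO and 4 with JNKi, where 2919 and 3218 of all 13896 genes rose. The part of these shifts in the falls was not tested.

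Junb held 14440 and 19425 normalized reads in DMSO (96 h) and 11472 and 11874 (7 days), and 15716 and 16132 with JNKi (96 h) and 8698 and 10742 (7 days). The 4 libraries of 7 days were the lowest 4 of the 20. The log2 change was -0.52 in DMSO (SE 0.18, limma adjusted p = 0.0293), lost without DMSO 96 h replicate 2 (-0.31, 0.295), DMSO 7 d replicate 1 (-0.50, 0.10) or DMSO 7 d replicate 2 (-0.55, 0.0992) and in limma without the trend (0.0646). With JNKi it was -0.72 (SE 0.18, limma adjusted p = 0.00430), lost without JNKi 7 d replicate 1 (-0.57, 0.0615). Atf2 fell by 0.26 in DMSO (SE 0.09, limma adjusted p = 0.0289), to 2959 and 2524. That call was lost without DMSO 7 d replicate 2 (-0.14, 0.308) or DMSO 96 h replicate 2 (-0.14, 0.314) and when only those 4 libraries were fitted (0.143). With JNKi Atf2 fell by 0.45 (SE 0.09, limma adjusted p = 7.74e-04), to 2551 and 2368.

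Atf3 fell with JNKi by 1.62 (SE 0.40, limma adjusted p = 0.00477). That call did not hold without JNKi 7 d replicate 1 (-1.36, 0.0568). In DMSO its change was -0.39 (SE 0.40, limma adjusted p = 0.480). Jun fell with JNKi by 0.49 (SE 0.15, limma adjusted p = 0.0187), lost without JNKi 7 d replicate 1 (-0.33, 0.197) or JNKi 96 h replicate 2 (-0.38, 0.156), and changed by -0.06 in DMSO (SE 0.15, limma adjusted p = 0.782). That these changes passed in 1 arm does not show that the arms differ. The nearest test of that difference, given above, had limma adjusted p-values of 0.0665 for Atf3 and 0.0699 for Jun.

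Fos and Fosb had large time changes that did not pass. Between 96 h and 7 days Fos changed by -2.02 in DMSO (SE 0.84, limma adjusted p = 0.0693) and -1.76 with JNKi (SE 0.84, limma adjusted p = 0.106), and both passed with edgeR (-2.40, adjusted p = 0.0417, and -2.29, 0.0498), with DESeq2 (-2.40, 0.0399, and -2.29, 0.0496) and in fits on the groups compared (limma adjusted p = 0.0377 and 0.00453). Fos also passed in DMSO without DMSO 96 h replicate 2 (-3.09, limma adjusted p = 0.0287), JNKi 96 h replicate 1 (-2.02, 0.0426) or JNKi 96 h replicate 2 (-2.02, 0.0427) and, with JNKi, without JNKi 96 h replicate 2 (-3.06, limma adjusted p = 0.0224). Fosb changed by -1.45 in DMSO (SE 0.57, limma adjusted p = 0.0554) and -0.79 with JNKi (SE 0.57, limma adjusted p = 0.283), and in DMSO edgeR gave an adjusted p of 0.0497. It also passed in a fit on the groups compared (0.00324) and without either library of 24 or 48 h of either arm (0.0351 to 0.0465). With JNKi Fosb passed in the fit on the groups compared (1.81e-04), as did Jund over this span (-0.23, 0.0149).

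Between 24 and 96 h Fos changed by -1.44 in DMSO (SE 0.84, limma adjusted p = 0.144) and -1.91 with JNKi (SE 0.84, limma adjusted p = 0.0585). Neither passed. In DMSO Fos passed without DMSO 96 h replicate 1 (-2.52, limma adjusted p = 0.0323). With JNKi it passed without JNKi 96 h replicate 1 (-3.22, limma adjusted p = 0.00745), JNKi 24 h replicate 1 (-2.63, 0.0357) or either DMSO library of 96 h (-1.91, 0.0424 in both). Over the same span with JNKi, Fosb passed without JNKi 24 h replicate 2 (1.61, limma adjusted p = 0.0444) and Junb without JNKi 24 h replicate 1 (-0.49, limma adjusted p = 0.0436).

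Fos, the early-response partner of Jun, differed more between the 2 libraries of a group than nearly any other gene up to 96 h. In DMSO it held 1366 and 2864 normalized reads (24 h, replicate 1 then replicate 2), 564 and 1503 (48 h), 805 and 305 (72 h), and 1539 and 345 (96 h). With JNKi it held 1625 and 4418 (24 h), 536 and 1259 (48 h), 782 and 236 (72 h), and 1757 and 288 (96 h). The library numbered 2 was the higher at 24 and 48 h and the library numbered 1 at 72 and 96 h, in both arms. As log2 differences, replicate 2 minus replicate 1, the DMSO gaps were 1.07, 1.41, -1.40 and -2.15 at 24, 48, 72 and 96 h in turn, and the JNKi gaps 1.44, 1.23, -1.73 and -2.61, the last a 6.09-fold gap between 2 libraries. At 7 days they were 0.05 and -0.01.

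Among 9605 genes averaging 200 or more normalized reads, the size of the Fos difference stood at or above percentile 99.8 in both arms at 24, 48, 72 and 96 h, and at percentiles 18.2 and 7.93 at 7 days. Fosb moved the same way at 24, 48 and 72 h (1.23 and 1.62, 1.46 and 1.53, -0.97 and -0.82), as did Atf3 (0.79 and 0.96, 0.46 and 1.05, -0.98 and -0.92) and Maff (0.68 and 0.70, 0.63 and 0.78, -0.74 and -0.66). At 96 h these 3 did not share the Fos gap: Fosb stood at 0.30 and -0.37, Atf3 at -0.08 and 0.25, and Maff at 0.19 and -0.09. The 4 genes thus ran together at 3 times and apart at 96 h. At 7 days, the time of the calls between the arms, the Atf3 gap was -0.50 in DMSO and 0.53 with JNKi. In size these stood at percentiles 97.1 and 99.8. The Jun gaps at 7 days were 0.20 in DMSO and 0.32 with JNKi (percentiles 66.0 and 97.2). Jun, Junb, Jund, Fosl1, Fosl2 and Atf2 differed by at most 0.51 between the 2 libraries of any group. What sets these differences was not tested, and the labels name no batch.

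**Figure D4:**
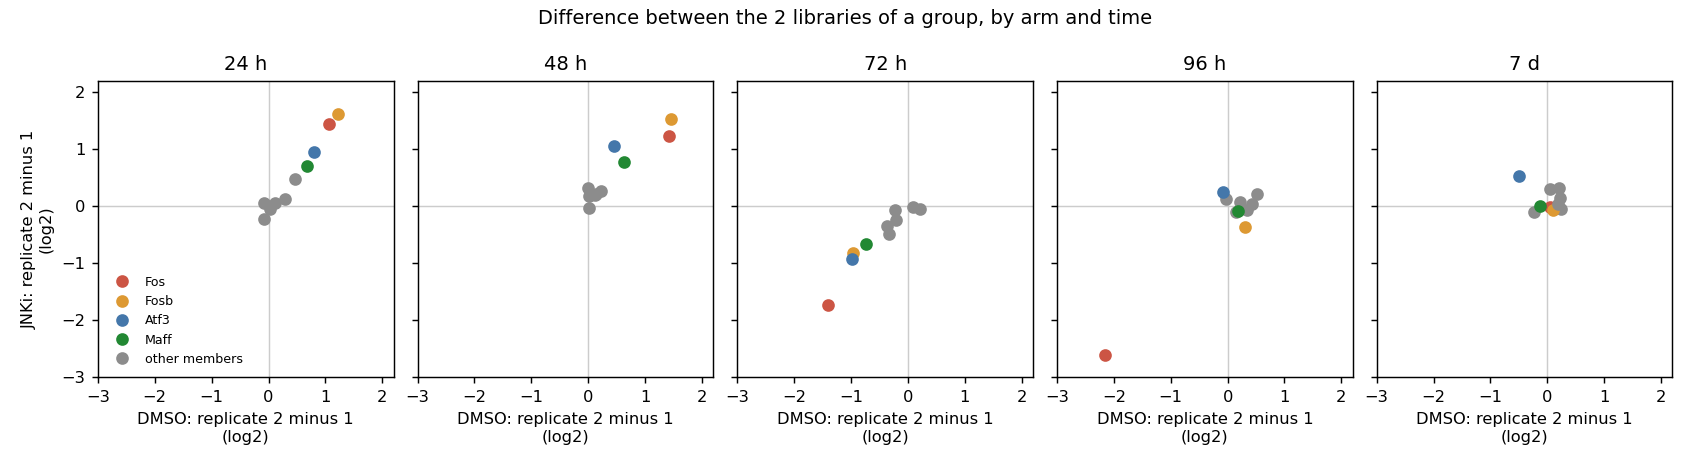
Log2 difference between the 2 libraries of a group (replicate 2 minus replicate 1), DMSO on the x axis and JNKi on the y axis, 1 panel a time and 1 point an AP-1 gene. Fos lies at 1.07 and 1.44 at 24 h and at -2.15 and -2.61 at 96 h, so the gap has the same direction in both arms at a time and the opposite direction between those times.

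The genes most like each member over the 20 libraries (Pearson r on the log2 scale, among 10988 genes averaging 50 or more, a description with no test) differed from one member to another. Fos was most like the early-response genes Ier2 (0.92) and Egr1 (0.91), and Atf3 most like Ppp1r15a (0.96), a stress-induced phosphatase subunit, with Pdcd2 (0.95) and the zinc finger factor Klf4 (0.95). Fosl2 and Jund shared their nearest gene, the actin-associated Palld (0.97 and 0.93), and were the most alike pair of members (0.91). For Jun the highest values were lower, with Epha1, Rbm22 and Chordc1 all at 0.73. Junb was nearest Taf6 (0.92), Snx9 (0.90) and Sox9 (0.90), Fosb nearest Gfod1 (0.88), Fosl1 nearest Tfg (0.87), Atf2 nearest Mettl2 (0.94) and Maff nearest Cited2 (0.87). The 20 libraries share times, arms and the library differences described above.

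Other genes of the pathway were taken from lists made from general knowledge. Of 17 further bZIP genes and dimer partners 12 were tested. Of all genes, 10.2% were called between the arms at 7 days and 5.33% were called lower with JNKi. Among these 12, 3 were lower and 0 higher (median -0.14, against 0.02 for all genes). They were Ddit3, the stress factor CHOP (-0.86, SE 0.25, limma adjusted p = 0.0407), Jdp2, a repressor that pairs with Jun (-0.57, SE 0.13, limma adjusted p = 0.0126), and Nfe2l1 (-0.33, SE 0.10, limma adjusted p = 0.0376). Jdp2 held 2781 and 2801 normalized reads in DMSO and 1594 and 2224 with JNKi. Without DMSO 7 d replicate 1 these calls were lost (limma adjusted p = 0.314, 0.0842 and 0.343), as they were without JNKi 7 d replicate 1 (0.203, 0.198 and 0.314), and Ddit3 was also lost without JNKi 7 d replicate 2 (0.130). Nfe2l1 was lost without JNKi 96 h replicate 1 (0.0520) or replicate 2 (0.0520) too, and in a fit on the 4 libraries of 7 days (0.101). limma without the trend gave 0.0871 for Ddit3 and 0.0644 for Nfe2l1.

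Among 25 genes of the JNK cascade, 23 were tested, and 1 was higher and 1 lower with JNKi at 7 days. Of all genes, 10.2% were called in that comparison and 5.33% were called lower. The kinase gene Map3k11 was higher by 0.35 (SE 0.08, limma adjusted p = 0.010), and Gadd45a, a stress sensor upstream of the cascade, lower by a log2 difference of -0.86 (SE 0.24, limma adjusted p = 0.0329). Map3k11 was lost without DMSO 7 d replicate 1 (0.26, 0.123), JNKi 7 d replicate 1 (0.34, 0.0772) or JNKi 7 d replicate 2 (0.35, 0.0564), and Gadd45a without DMSO 7 d replicate 1 (-0.58, 0.305) or JNKi 7 d replicate 1 (-0.61, 0.286) and in limma without the trend (0.0826). The JNK genes themselves did not pass: Mapk8 had a difference of -0.20 (SE 0.13, limma adjusted p = 0.358) and Mapk9 one of 0.11 (SE 0.08, limma adjusted p = 0.409). Mapk8 did pass without DMSO 7 d replicate 2 (-0.45, 0.0323).

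Of 22 AP-1 target genes 21 were tested, and 4 were higher and 5 lower with JNKi at 7 days. For this list and the next, the share of all genes called at 7 days was 10.2%, with 5.33% called lower. The collagenase gene Mmp13 held 254 and 220 normalized reads in DMSO and 1040 and 1214 with JNKi (log2 difference 2.24, SE 0.25, limma adjusted p = 6.08e-05), and the stromelysin gene Mmp3, at very low levels, held 0 and 5.4 in DMSO and 30.5 and 35.7 with JNKi (3.75, SE 0.69, limma adjusted p = 0.00298, lost without DMSO 7 d replicate 1 at 2.41 and 0.0533, and 1.99 with a pseudocount of 8). Mmp3 passed the filter on low values only through JNKi 7 d (mean 33.1, at most 5.65 in any other group). Its call is thus not independent of that filter. Without it the targets still went both ways while Jun and Atf3 were lower. Of 28 immediate-early genes 26 were tested, and 1 was higher and 2 lower: Ctgf (-1.02, SE 0.15, limma adjusted p = 6.41e-04) and the serum response factor gene Srf (-0.77, SE 0.11, limma adjusted p = 4.02e-04). At 24, 48, 72 and 96 h the 4 lists together held 1 call, Mmp13 at 72 h (1.54, SE 0.25, limma adjusted p = 0.0238), lost without DMSO 72 h replicate 1 (1.66, 0.174), DMSO 72 h replicate 2 (1.43, 0.404) or JNKi 72 h replicate 2 (1.32, 0.287) in limma without the trend (0.0880) and when fitted on those 4 libraries (0.707).

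Over 24 to 96 h in DMSO, 6 of the 12 further bZIP genes rose and 1 fell, 6 of the 23 JNK cascade genes rose and 4 fell, 11 of the 21 AP-1 targets rose and 3 fell, and 11 of the 26 immediate-early genes rose and 3 fell. With JNKi the counts were 4 and 0, 6 and 4, 12 and 3, and 9 and 3. Of all 13896 genes tested, 32.7% rose in DMSO and 30.8% with JNKi, while 4245 fell in DMSO and 4032 with JNKi. Ddit3 rose by 3.45 in DMSO (SE 0.25, limma adjusted p = 1.08e-08) and 3.30 with JNKi (SE 0.25, limma adjusted p = 2.69e-08), alongside Atf3. The gelatinase gene Mmp9 rose by 4.84 in DMSO (SE 0.34, limma adjusted p = 5.98e-09) and 4.67 with JNKi (SE 0.34, limma adjusted p = 1.52e-08). Gadd45a rose by 1.63 (SE 0.24) and 1.75 (SE 0.24). Between 96 h and 7 days 1 of the further bZIP genes rose and 0 fell in each arm. Of the JNK cascade genes 1 rose and 7 fell in DMSO, and 2 rose and 6 fell with JNKi. For the AP-1 targets these counts were 6 and 6 in DMSO, and 8 and 7 with JNKi. The immediate-early genes had 0 rises in either arm, with 3 falls in DMSO and 6 with JNKi. Over all 13896 genes, 15.5% fell in DMSO and 16.6% with JNKi, while 2919 rose in DMSO and 3218 with JNKi.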

How the data were processed

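RNA was sequenced in 35 samples of NMuMG cells, and the 20 DMSO and JNKi libraries (10 groups of 2, from the sample titles) are analysed here. The 15 samples of a TGF-β time course are not, because cells of that table are split at the decimal point and cannot be read back. The deposited table holds the authors' normalized read count (a signal scaled per library) for 20261 genes. TopHat, HTSeq, DESeq and the mm9 build are named, without versions, in the submitters' processing notes. No strand setting is given in the sources used here, and overlapping genes are uncertain.

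Every low value was a whole multiple of its library's step (100% within 0.1), so whole reads were recovered, with depths from 9.5 to 48.6 M reads. Precision differs accordingly. Values were tested as log2(value + 1) with limma-trend (limma 3.58.1, R 4.3.3), 1 mean a group over all 20 libraries, two-sided, Benjamini-Hochberg over 13896 genes, at a threshold of 0.05. Fold changes are on that scale. Alternatives used edgeR 4.0.16 and DESeq2 1.42.0 on the recovered reads, other pseudocounts, filters and scaling, replicate blocks and each library left out. The script was tested on simulated data. Exonic lengths came from GENCODE on GRCm38.

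The members and lists were chosen with earlier results of these data known. All members were named. From each other list the rule took up to 4 genes, 2 by size of change among those called and 2 by mean level, of which a part is printed and 1 AP-1 target is not reported here, and for each member it took the 3 genes most correlated with it.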

Additional observations from a re-analysis of the deposited data

Results flagged for a closer look

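None of the 10 AP-1 genes met a rule for a closer look. Groups of 2 libraries are too small to look for outlying samples. Of the other genes described, 5 had a JNKi difference at 7 days that departed from its mean over 24 to 96 h by limma. The departure in log2 units was -0.89 for Ctgf (limma adjusted p = 0.00939), 0.41 for Map3k11 (0.0174), 1.14 for Mmp13 (0.0322), 3.15 for Mmp3 (0.0333) and -0.57 for Srf (0.0177). Mmp3 was tested only because its JNKi 7 d mean was past the filter on low values, so its place here is not independent of that filter. None passed the limma F-test over all times, where adjusted p-values ran from 0.101 for Ctgf to 0.217 for Mmp3. Without JNKi 7 d replicate 1 all 5 lost the call, with adjusted p-values of 0.0867 for Ctgf, 0.110 for Map3k11, 0.125 for Mmp13, 0.148 for Mmp3 and 0.160 for Srf. Without DMSO 7 d replicate 1 they stood at 0.0894 for Ctgf, 0.146 for Map3k11, 0.120 for Mmp13 and 0.256 for Mmp3, and Srf kept its call. Other libraries also took calls away: DMSO 7 d replicate 2 for Srf (0.0642) and Mmp13 (0.0826), and JNKi 7 d replicate 2 for Map3k11 (0.0688), Mmp13 (0.151) and Mmp3 (0.132). Mmp13 was lost without JNKi 96 h replicate 2 (0.0506), and Mmp3 without DMSO 72 h replicate 2 (0.0527), JNKi 72 h replicate 1 (0.0506), JNKi 96 h replicate 1 (0.0522) or JNKi 96 h replicate 2 (0.0534) and with edgeR (0.126).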

How the results depend on the processing

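Of 4247 alternative values for the 10 AP-1 genes, 4168 kept their side of the threshold, 52 passed where the reported value had not, and 27 no longer passed. The sign changed in 112, in each of which neither value passed, and in none of the called values. In the counts of AP-1 genes past the test, limma without the trend gave 0 for JNKi against DMSO at 7 days (from 2) and 1 for DMSO 7 d against 96 h (from 2). A fit on the groups compared gave 7 for JNKi 7 d against 96 h (from 4) and 0 for JNKi 48 h against 24 h (from 2). edgeR gave 4 for DMSO 7 d against 96 h, and DESeq2 1 for the 7-day difference minus the earlier mean (from 0). With each library left out in turn, counts ran from 0 to 2 at 7 days, 0 to 1 for the 7-day difference minus the earlier mean, 2 to 5 (DMSO) and 3 to 5 (JNKi) for 96 h against 24 h, 0 to 3 and 1 to 4 for 7 d against 96 h, and 2 to 2 in both arms for 48 h against 24 h. They stayed at 0 for the other comparisons of the arms.

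Same-numbered libraries of both arms deviated together over 9605 genes at 24 h (r = 0.73), 48 h (0.59), 72 h (0.72) and 96 h (0.53) and not at 7 days (0.07), so the numbers were not taken to pair the samples. A replicate block gave 1 AP-1 gene for the 7-day difference minus the earlier mean, Jun (limma adjusted p = 0.00731). Jun also passed under it for DMSO 96 h against 24 h (0.00496) and Fosb for DMSO 7 d against 96 h (0.0434). A replicate block within each time gave 5 at 7 days, 4 for that difference, 1 for the mean over times and 2 for the F-test, where 25.3%, 17.4%, 15.8% and 8.26% of all genes passed. Beside Jun and Atf3, those at 7 days were Jund (limma adjusted p = 0.00769), Junb (0.0334) and Fosb (0.00642). For the 7-day difference minus the earlier mean they were Atf3 (2.11e-04), Jun (8.83e-04), Fosb (0.0155) and Jund (0.0165), for the mean Atf3 (0.0336), and for the F-test Atf3 (0.00219) and Jun (0.00818). The SE of the Fos difference between the arms at each time was 0.12 with this block and 0.84 in the reported model.

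Over all genes and the settings other than that block and left-out libraries, calls at 7 days ran from 1169 to 2032 (1414 as reported), 47.6% of them higher as reported against 58.2% with no filter. They ran from 256 to 841 for the 7-day difference minus the earlier mean (464 as reported, 49.6% higher against 64.0% with no filter and 60.1% with a pseudocount of 8), from 16 to 358 for the F-test (45), 0 to 105 at 72 h (10), 0 to 34 at 96 h (1), 1066 to 4198 (3942) and 0 to 3315 (3075) for 48 h against 24 h in DMSO and JNKi. With 2 libraries a group, a change the size of the gap between them cannot be told from it.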
